A study of Homo sapiens with 16 samples.

Results

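The genes described here are the immunoglobulin genes, together with JCHAIN, in NCI-H929 cells, an established line from a human myeloma. They were chosen by name: every symbol of the heavy, kappa or lambda chain loci that starts with IGH, IGK or IGL followed by V, D, J, C or a class letter, plus JCHAIN, with at least 50 counts summed over the 16 libraries. Of 410 such symbols among the 57500 genes counted, 40 passed, 74 had 1 to 49 counts and 296 had 0. The 3 members just inside the threshold were IGLC6 with 74 counts, IGLC4 with 56 and IGLV1-50 with 52, and the 3 symbols just outside were IGLJ6 with 40, IGLJ5 with 39 and IGKV3OR2-268 with 38. Since the summed counts chose the members, their levels are given below as a description, and a member near the threshold could pass through 1 group alone. IGKV1OR2-108, named after its values were seen, had 13, 17, 16 and 13 counts in the NTC libraries and 0 to 2 in each DMSO or degrader library.

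RNA was sequenced in 4 groups of 4 libraries. In the first experiment cells received p300 degrader 27, a compound made to trigger proteolysis of p300, at 3 nM for 6 h, and their controls received the solvent DMSO. The second experiment set libraries labelled p300 KO against libraries labelled NTC. All 16 libraries come from the same line, the labels put all of them in batch 1, and give no method for the KO. Nothing in them tells whether the 4 libraries of a group were separate cultures, so a p-value reflects the spread between libraries alone, which may be technical. The protein p300 is a histone acetyltransferase and transcriptional coactivator, encoded by EP300.

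An antibody is made of heavy and light chains. Each chain gene is assembled from a variable (V), a joining (J) and, in heavy chains, a diversity (D) segment, and its messenger RNA carries a constant (C) part that sets the class: IGHM for IgM, IGHG1 to IGHG4 for IgG, IGHA1 and IGHA2 for IgA, IGHE for IgE, IGKC for kappa light chains and the IGLC genes for lambda. A plasma cell clone uses 1 rearranged heavy and 1 rearranged light chain, and makes very large amounts of both; JCHAIN, the joining chain of polymeric IgA and IgM, is a separate small protein that shares only a name with the J segments. In a kappa gene the segments IGKJ1 to IGKJ5 lie in that order upstream of IGKC. Once a V segment has been joined to a J segment, the J segments that remain downstream of it stay in the DNA as part of the intron before IGKC and are removed from the RNA by splicing. Unrearranged constant genes of the heavy chain locus can also be transcribed, as so-called germline transcripts. NCI-H929 is known as an IgA kappa line that carries the translocation t(4;14), which joins the heavy chain locus to NSD2 and FGFR3.

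The kappa J segments are shown because 3 of them changed in opposite directions in the comparisons. All 5 are on the minus strand of GRCh38, and the capitals mark the run TTNGGNNNNGGG, which codes for the conserved phenylalanine-glycine motif of the joining segment. The exons lie at chr2:88861886-88861923 (IGKJ1), chr2:88861525-88861563 (IGKJ2), chr2:88861221-88861258 (IGKJ3), chr2:88860886-88860922 (IGKJ4) and chr2:88860568-88860605 (IGKJ5), which is 4203, 3842, 3538, 3203 and 2885 bases upstream of the IGKC exon at chr2:88857161-88857683.
IGKJ1: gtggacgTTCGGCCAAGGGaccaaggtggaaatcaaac
IGKJ2: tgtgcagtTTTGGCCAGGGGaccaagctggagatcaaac
IGKJ3: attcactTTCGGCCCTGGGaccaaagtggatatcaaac
IGKJ4: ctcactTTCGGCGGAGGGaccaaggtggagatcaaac
IGKJ5: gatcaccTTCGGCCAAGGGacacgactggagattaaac

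Total counts ran from 12590308 to 23120350 per library. Genes of the mitochondrial genome took 64.9% of the counts in degrader replicate 2 and 47.7% in p300 KO replicate 1, against 5.99 to 23.5% in the other 14 libraries, so these 2 libraries stand apart. Fold changes of single genes below come from all libraries, followed by the value without degrader replicate 2 or KO replicate 1. EP300 was at 91.0 to 100.0 CPM (counts relative to the library's total, scaled as described below) in the NTC libraries and 34.0 to 50.2 CPM in the KO libraries. The 8 plasma cell markers examined, among them SDC1 (syndecan-1), TNFRSF17 (BCMA) and IRF4, summed to between 2644 and 5105 non-mitochondrial CPM (counts scaled to the non-mitochondrial total of the library), and the 6 markers of earlier B cells to between 10.3 and 40.5. The plasma cell sum was 4407 to 4752 in DMSO, 2644 to 5105 with the degrader, 4367 to 4561 in NTC and 3051 to 4203 in the KO. By the test described below, 5 of the 8 fell in the KO and none rose (10.7% of all genes were called lower, 6.23% higher). Without KO replicate 1, 6 fell and 1 rose (21.8% and 19.1% of all genes). With the degrader 1 fell (3.12% of all genes), and without replicate 2, 2 fell and 3 rose (20.3% and 18.2%). Genes at 0 counts could have had up to 3 counts in a library, which is 0.130 to 0.238 CPM, counting error only.

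Kappa chain genes and JCHAIN made up nearly all of the immunoglobulin RNA. JCHAIN held 46.4% of all member counts (2821940), IGKC 34.8% (2117983), and the V gene IGKV3-15 took 948274 counts, IGKV3D-15 144194. Together these 4 genes made up 99.2% of the member counts, and 23 of the other 36 members had fewer than 500 counts over all 16 libraries. In non-mitochondrial CPM per kilobase of gene length, IGKC was the highest, with a mean over the 16 libraries of 15326 and a range of 6888 to 26024. It was followed by IGKV3-15 (mean 7761, range 1914 to 9913), JCHAIN (mean 6359, range 4281 to 8041) and IGKV3D-15 (mean 1300, range 277 to 1833). The ranges of IGKC and IGKV3-15 overlapped across libraries, as did those of IGKV3-15 and JCHAIN, while IGKV3D-15 lay below the range of JCHAIN. Within each library, however, IGKC was above IGKV3-15. IGKV3-15 alone made up 84.7 to 89.8% of the kappa V counts of a library, and with IGKV3D-15 99.2 to 99.6%. IGKV3D-15, a near-identical copy of IGKV3-15 in the inverted distal duplicate of the kappa V cluster, gave 10.8 to 17.5 counts for each 100 of IGKV3-15; reads that fit both genes cannot be told apart, and of all stretches of 100 bases in the IGKV3-15 transcript only 37.3% are not found in another immunoglobulin transcript.

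Among the kappa J segments, IGKJ1 had the most counts (4927), followed by IGKJ4 (3546), IGKJ5 (2970) and IGKJ3 (2733). IGKJ2 had 0 counts in every library; a second annotated gene has exactly the same 39 bases and had 0 counts too, and the sources used here do not give how reads on overlapping genes were counted. A J segment of 37 to 39 bases is short, and a read that spans from V through J into C touches several genes, so the J counts are no measure of how often each segment was used.

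Heavy chain RNA was low. The 9 heavy chain constant members together had 15160 counts, 0.249% of the member counts and 7.16 counts for each 1000 of IGKC. Summed over all libraries, IGHE, the IgE constant gene, led them with 5035 counts, followed by IGHA2 (2485), IGHM (2361), IGHA1 (1966), IGHG1 (1293) and IGHG4 (1105). IGHE led in every NTC and KO library, with 251 to 708 counts against 70 to 210 for IGHM. In the DMSO and degrader libraries IGHE had 42 to 151 counts and IGHM 73 to 170, so IGHE did not lead throughout. In non-mitochondrial CPM per kilobase, IGHE had a mean over the 16 libraries of 12.8, IGHA2 8.51, IGHA1 6.76 and IGHM 5.49. None of the 149 heavy chain V symbols was a member: 132 had 0 counts, all of them together had 64 counts, and the highest, IGHV6-1, had 28. IGHD, the IgD constant gene, and the segments IGHJ1 and IGHJ2 had 0 counts. For a line known as IgA kappa, IGHA1 stood at 14 to 53 counts per library in the DMSO and degrader groups and 184 to 227 in the NTC and KO groups, and the counts of IGHA2 ran from 5 to 25 and from 225 to 344 in the same groups. Of the stretches of 100 bases in their transcripts, 92.3% are not found in another immunoglobulin transcript in either gene. IGHE overlaps other annotated genes on the same strand by up to 136 and 256 bases, and these had 86 and 184 counts. IGHG2 overlaps COPDA1, which had 18 counts, by up to 294 bases. How reads on such overlaps were counted is not given. Why heavy chain counts were low was not tested.

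**Figure D1:**
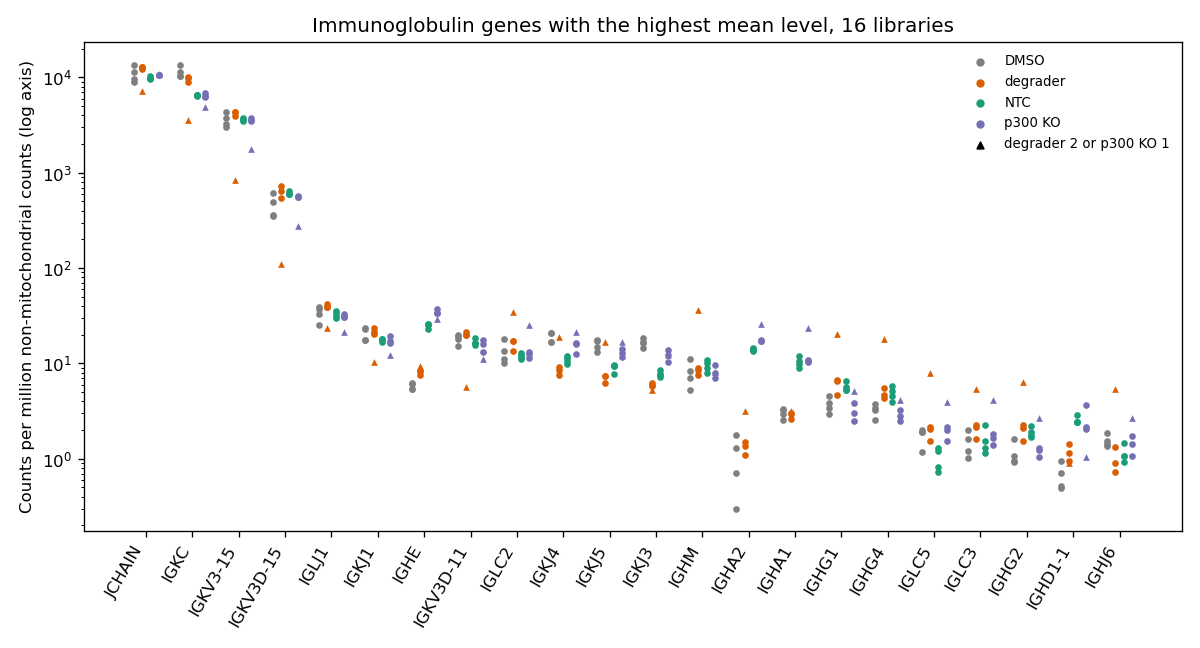
Non-mitochondrial CPM (log axis) of the 22 immunoglobulin genes with the highest mean level; each point is 1 of 16 libraries, coloured by group, and triangles are degrader replicate 2 and p300 KO replicate 1. JCHAIN, IGKC and IGKV3-15 lie far above every heavy chain gene, and the triangles leave their groups for many genes.

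Lambda chain genes were also read at low levels. IGLJ1 had 8798 counts and IGLC2 3644, while the V genes of this locus had 741 counts over 4 members. IGLJ1 (chr22:22893692-22893818) shares 122 of its bases with IGLL5, a gene related to the surrogate light chain, which is no member and had 149861 counts. The IGLC1 gene lies within an IGLL5 exon and had 0 counts. IGHD1-1, the one D segment that passed the threshold (466 counts), is a stretch of 17 bases inside the span of FAM30A on the opposite strand, which had 121876 counts, and JCHAIN overlaps ENAM on the opposite strand over 87 bases. The sources used here do not state whether counting used the strand, so the counts of these pairs cannot be told apart with certainty.

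The controls of the experiments differed in these genes, which is a comparison between experiments and was not tested. In non-mitochondrial CPM, the summed IgG constant genes (IGHG1, IGHG2, IGHG3, IGHG4 and the pseudogene IGHGP) stood at 7.56, 8.95, 10.1 and 9.77 in DMSO and at 17.5, 14.2, 13.6 and 15.2 in NTC. IGHE had 74 to 106 counts in the DMSO libraries and 471 to 525 in the NTC libraries. JCHAIN gave 0.794 to 1.09 counts per IGKC count in DMSO and 1.51 to 1.60 in NTC.

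All members together took a similar share of the non-mitochondrial counts with and without p300 perturbation, apart from the 2 libraries named above. The share was 2.40, 2.52, 3.09 and 2.61% in DMSO and 2.63, 1.20, 2.78 and 2.77% with the degrader, where 1.20% was replicate 2. It was 2.03, 2.09, 2.13 and 2.07% in NTC and 1.80, 2.11, 2.20 and 2.11% in the KO, where 1.80% was replicate 1. The 95% exact binomial interval reached at most 0.0102 percentage points to either side of a library's share. The mean log2 share differed by −0.25 between degrader and DMSO and by 0.05 without degrader replicate 2, and by −0.02 between KO and NTC and 0.04 without KO replicate 1. No test is given for this share, since it sums genes that were chosen with results of these data known. Within the sum, IGKC was at 8938, 3602, 9859 and 10126 non-mitochondrial CPM with the degrader and at 10327 to 13611 in DMSO. It was at 4860 to 6822 in the KO and 6312 to 6519 in NTC. JCHAIN gave 1.28 to 2.00 counts per IGKC count with the degrader and 0.794 to 1.09 in DMSO, and 1.56 to 2.23 in the KO and 1.51 to 1.60 in NTC. On this scale every degrader library was below every DMSO library for IGKC. With the scaling used for the tests of single genes below, IGKC overlapped between degrader and DMSO and did not pass. JCHAIN per IGKC count was not tested, and no test is given for the parts on this scale. Fewer immunoglobulin-rich cells and less immunoglobulin RNA per cell cannot be told apart in such bulk samples.

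**Figure D2:**
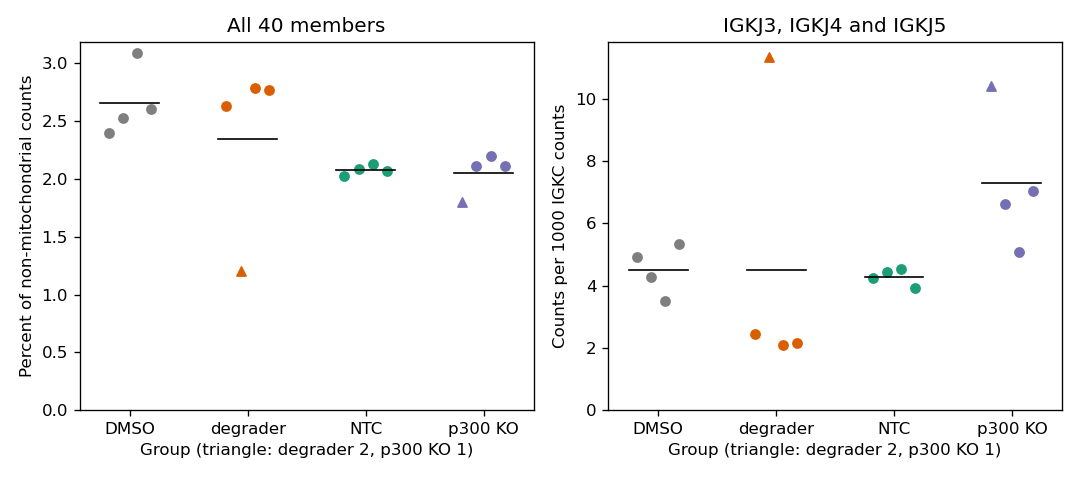
Left, percent of non-mitochondrial counts taken by the 40 members; right, summed counts of IGKJ3, IGKJ4 and IGKJ5 per 1000 IGKC counts. Points are libraries, lines are group means (n = 4) and triangles are degrader replicate 2 and p300 KO replicate 1; without the triangles the left panel shows similar levels within each experiment, while on the right the degrader libraries lie at 2.11 to 2.43 and the KO libraries at 5.08 to 7.03.

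The first comparison asked how the immunoglobulin genes differ after 6 h with the degrader. The main clone genes did not pass the test, IGKJ3 fell and IGHE rose. With all 8 libraries, 27 of the 40 members passed the filter on low counts, 1 rose (1.64% of all 15872 genes tested were called higher) and 1 fell (3.12% of all genes were called lower). The test was edgeR's quasi-likelihood test with Benjamini-Hochberg adjustment over all genes, and a gene was called at an adjusted p under 0.05. The median log2 fold change was 0.26 over the 27 members and 0.05 over all genes tested. Without degrader replicate 2, 28 members were tested, 6 rose and 3 fell, while 18.2% of all genes were called higher and 20.3% lower. Both genes called with all libraries were among these 9.

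JCHAIN was at 6848, 7491, 10081 and 8520 CPM in DMSO and, with the degrader, 9881, 5515, 10299 and 10276 CPM. CPM of single genes are scaled with TMM, a factor per library that sets the bulk of genes equal, within each comparison. The groups overlapped, and the lowest value was degrader replicate 2. The log2 fold change was 0.13 ± 0.25 (SE, adjusted p = 0.821) and, without that library, 0.30 ± 0.12 (adjusted p = 0.0617). IGKC, the constant part of the clone's light chain, was at 8625, 7993, 10157 and 7812 CPM in DMSO and, with the degrader, 7231, 2762, 7987 and 8050.0 CPM (log2 fold change −0.41 ± 0.33, adjusted p = 0.520; −0.16 ± 0.11, adjusted p = 0.241 without replicate 2). IGKV3-15, its V gene, was at 2277, 3378, 2420.0 and 2863 CPM in DMSO, against 3512, 648, 3541 and 3128 CPM after the degrader. The fold change of IGKV3-15 on the log2 scale was −0.01 ± 0.45 (adjusted p = 0.993) and turned to 0.30 ± 0.13 (adjusted p = 0.0709) without replicate 2. The copy IGKV3D-15 had 0.25 ± 0.50 (adjusted p = 0.822) and rose without replicate 2, by 0.57 ± 0.17 (adjusted p = 0.0166).

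IGKJ3, which lies between IGKJ1 and IGKC, fell with the degrader, while IGKJ4 and IGKJ5 fell only in some fits. IGKJ3 was at 13.8, 11.2, 12.2 and 12.7 CPM in DMSO and, with the degrader, 5.08, 3.99, 4.74 and 4.66 CPM. Every treated library was below every DMSO library, and the log2 fold change of IGKJ3 was −1.42 ± 0.13 (adjusted p = 0.00109; −1.37 ± 0.12, adjusted p = 1.96e-06, without replicate 2). IGKJ4 was at 15.7, 12.9, 12.6 and 15.8 CPM in DMSO and, with the degrader, 7.41, 14.4, 6.13 and 6.71 CPM. The high treated value was replicate 2; IGKJ4 did not pass with it (−0.76 ± 0.26, adjusted p = 0.139) and fell without it (−1.09 ± 0.13, adjusted p = 2.64e-05). With all libraries kept, IGKJ4 passed in DESeq2 (adjusted p = 0.0357), limma-voom (0.0353) and the edgeR fit on all 16 libraries (0.0182). IGKJ5 went the same way: 13.0, 10.1, 11.03 and 13.3 CPM in DMSO, then 5.08, 13.0, 5.95 and 5.90 CPM in treated libraries, and a log2 fold change of −0.72 ± 0.28 (adjusted p = 0.196) that became −1.07 ± 0.13 (adjusted p = 4.33e-05) without replicate 2. IGKJ5 also passed with all libraries in limma-voom (adjusted p = 0.0456) and the fit on all 16 libraries (0.0284). IGKJ1, which lies upstream of these, did not pass with a log2 fold change of −0.01 ± 0.25 (adjusted p = 0.990; 0.17 ± 0.13, adjusted p = 0.315, without replicate 2). Summed over IGKJ3, IGKJ4 and IGKJ5, there were 4.94, 4.27, 3.52 and 5.34 counts per 1000 IGKC counts in DMSO and 2.43, 11.4, 2.11 and 2.15 with the degrader, the 11.4 being replicate 2.

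Of the heavy chain constant genes, IGHE rose with the degrader. IGHE was at 4.65, 4.84, 4.06 and 4.06 CPM in DMSO and, with the degrader, 6.10, 7.28, 6.76 and 6.62 CPM, with no overlap. IGHE rose by 0.60 ± 0.14 on the log2 scale (adjusted p = 0.0417), and by 0.55 ± 0.14 (adjusted p = 0.00594) without degrader replicate 2. Leaving out any of the other 7 libraries (DMSO 1, 2, 3 and 4, degrader 1, 3 and 4) kept the direction of IGHE but took its adjusted p to between 0.0751 and 0.146. The ratio of IGHE to IGKC counts, which needs no scaling between libraries, was 2.18-fold higher on average (mean log2 difference 1.13; exact two-sided permutation test with 4 against 4 libraries, p = 0.0286, the smallest it can give). Without degrader replicate 2, whose ratio was the highest, the mean log2 difference was 0.71 and p stayed at 0.0286 (exact permutation test). Without DMSO replicate 3 the difference was 1.01 and p was 0.0571 (exact permutation test). IGHE was taken for the ratio as the heavy chain constant gene with the most counts over all 16 libraries. The ratio uses the same libraries as the call of IGHE and also moves with IGKC, so it is no separate support. With libraries scaled by total counts in place of TMM, neither IGKJ3 (−1.52, adjusted p = 0.0612) nor IGHE (0.45, adjusted p = 0.644) passed, and without the filter on low counts IGHE had an adjusted p of 0.149.

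IGHG1, IGHG2, IGHG3 and IGHG4 did not pass with all 8 libraries in edgeR and rose without degrader replicate 2, the library with the highest values. With all libraries kept, IGHG1, IGHG4 and IGHG3 passed in DESeq2 (adjusted p = 0.0161, 0.0358 and 0.0260) and in the edgeR fit on all 16 libraries (0.0184, 0.0288 and 0.0285). IGHG1 was at 2.22, 2.61, 3.40 and 2.94 CPM in DMSO and, with the degrader, 5.47, 15.8, 3.76 and 5.24 CPM, so the groups did not overlap. IGHG1 did not pass with all libraries (1.37 ± 0.43, adjusted p = 0.112) and rose by 0.78 ± 0.19 (adjusted p = 0.00497) without replicate 2. IGHG4 was at 1.95, 2.88, 2.52 and 2.45 CPM against 4.50, 13.7, 3.49 and 3.67 CPM, again without overlap (1.29 ± 0.45, adjusted p = 0.144; 0.65 ± 0.18, adjusted p = 0.0130, without replicate 2). IGHG3 had 1.73 ± 0.53 (adjusted p = 0.106) and, without replicate 2, 1.14 ± 0.35 (adjusted p = 0.0193), from 7 to 11 counts per library in DMSO and 15 to 24 with the degrader. In this comparison IGHG3 passed the filter on low counts only through the degrader libraries, where it is high, so its rise is a description only. IGHG2, named here after its values were seen, rose without replicate 2 as well (0.85 ± 0.29, adjusted p = 0.0293). The IgG genes are near-identical in part, and 69.7% of the 100-base stretches of IGHG1 are found in no other immunoglobulin transcript, so the split of counts among them is uncertain. IGHM, the IgM constant gene, was at 3.95 to 8.32 CPM in DMSO, 28.1 CPM in replicate 2 and 6.13 to 7.19 CPM in the other treated libraries (0.94 ± 0.51, adjusted p = 0.342; 0.15 ± 0.19, adjusted p = 0.546, without replicate 2). IGHA1 and IGHA2 did not pass, with log2 fold changes of 0.03 ± 0.18 (adjusted p = 0.959) and 0.79 ± 0.53 (adjusted p = 0.442). Without replicate 2 these were 0.01 ± 0.19 (adjusted p = 0.984) and 0.49 ± 0.42 (adjusted p = 0.374). The markers of earlier B cells summed to 12.1 to 16.7 non-mitochondrial CPM in DMSO and 10.3 to 40.5 with the degrader. None of the 6 was at 0 and none of the 5 tested passed with all libraries. Without replicate 2, 1 of the 5 rose and 1 fell (18.2% and 20.3% of all genes). Their part in the heavy chain values was not tested.

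None of the lambda members tested passed with the degrader, with or without replicate 2. IGLJ1 was at 18.8 to 29.4 CPM in DMSO and, with the degrader, 18.0 to 33.2 CPM (log2 fold change 0.18 ± 0.21, adjusted p = 0.677; 0.33 ± 0.13, adjusted p = 0.0525, without replicate 2). IGLC2 had 0.68 ± 0.29 (adjusted p = 0.229; 0.37 ± 0.16, adjusted p = 0.0868, without replicate 2). IGLL5, which overlaps IGLJ1, was at 338, 433, 329 and 389 CPM in DMSO and, with the degrader, 634, 285, 694 and 635 CPM. IGLL5 did not pass with all libraries (0.59 ± 0.26, adjusted p = 0.244) and rose by 0.80 (adjusted p = 6.13e-05) without replicate 2.

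The second comparison asked how the same genes differ in the p300 KO cells. Again JCHAIN, IGKC and IGKV3-15 did not pass, while IGKJ3, IGKJ4, IGKJ5, IGHE and the lambda pseudogene IGLC5 rose and IGHG3, IGHGP and IGLV3-9 fell. IGHG3 and IGHGP reached the test only through their high NTC counts, so their falls are a description only. Of the 40 members 34 were tested, 5 rose (6.23% of all 17350 genes tested were called higher) and 3 fell (10.7% of all genes were called lower). The median log2 fold change was −0.05 over these members and 0.02 over all genes. Without KO replicate 1, 35 members were tested, 7 rose and 8 fell, with 19.1% of all genes called higher and 21.8% lower. The 8 genes called with all libraries were all among these 15. One that fell only without KO replicate 1 was IGKV1OR2-108, with 81 counts over all libraries. Most of these were in NTC (13, 17, 16 and 13 counts), and without the NTC libraries it would have missed the minimum count for members. High NTC counts thus made it a member, and its fall is given as a description only.

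JCHAIN was at 8185, 8332, 8648 and 8354 CPM in NTC and at 9107, 8900.4, 9029 and 8734 CPM in the KO. The groups did not overlap, but the log2 fold change of JCHAIN was small and did not pass (0.09 ± 0.09, adjusted p = 0.476; 0.08 ± 0.05, adjusted p = 0.187, without KO replicate 1). IGKC was at 5358, 5489, 5422 and 5531 CPM in NTC and 4076, 5195, 5798 and 5242 CPM in the KO (−0.10 ± 0.12, adjusted p = 0.564; −0.01 ± 0.05, adjusted p = 0.879, without replicate 1). IGKV3-15 was at 2987 to 3101 CPM in NTC, and at 1489 CPM in KO replicate 1 and 2933 to 3189 CPM in the other KO libraries (−0.20 ± 0.21, adjusted p = 0.511; −0.01 ± 0.05, adjusted p = 0.906, without replicate 1). IGKV3D-15 did not pass with all libraries (−0.31 ± 0.20, adjusted p = 0.293) and fell without replicate 1 by 0.12 on the log2 scale (adjusted p = 0.0407).

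IGKJ3, IGKJ4 and IGKJ5 rose in the KO. IGKJ3 was at 6.53, 6.38, 7.13 and 6.08 CPM in NTC and 10.4, 10.3, 8.90 and 11.5 CPM in the KO, a log2 fold change of 0.65 ± 0.10 (adjusted p = 0.00364). IGKJ5 was at 7.89, 7.84, 7.98 and 6.62 CPM in NTC and 14.1, 10.8, 9.99 and 11.9 CPM in the KO (0.61 ± 0.12, adjusted p = 0.00949). IGKJ4 was at 8.37, 10.2, 9.43 and 9.04 CPM in NTC and 18.1, 13.4, 10.5 and 13.5 CPM in the KO (0.57 ± 0.15, adjusted p = 0.0303). In all 3 segments every KO library was above every NTC library. Without KO replicate 1 the log2 fold changes were 0.64 (IGKJ3), 0.52 (IGKJ5) and 0.43 (IGKJ4), and all passed, with adjusted p of 3.76e-04 or below. IGKJ3 and IGKJ5 passed whichever library was left out; the call of IGKJ4 was lost without NTC 1, 2, 3 or 4 or KO 2 or 4 (adjusted p 0.0584 to 0.0912). With libraries scaled by total counts none of IGKJ3 (0.49, adjusted p = 0.176), IGKJ5 (0.42, adjusted p = 0.152) and IGKJ4 (0.37, adjusted p = 0.200) passed, and in a fit on all 16 libraries IGKJ5 (adjusted p = 0.115) and IGKJ4 (adjusted p = 0.137) did not. IGKJ1 did not pass (−0.11 ± 0.12, adjusted p = 0.567; −0.01 ± 0.08, adjusted p = 0.966, without replicate 1). Per 1000 IGKC counts the 3 segments summed to 4.25, 4.44, 4.52 and 3.93 in NTC and to 10.4, 6.64, 5.08 and 7.03 in the KO, 10.4 being replicate 1.

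**Figure D3:**
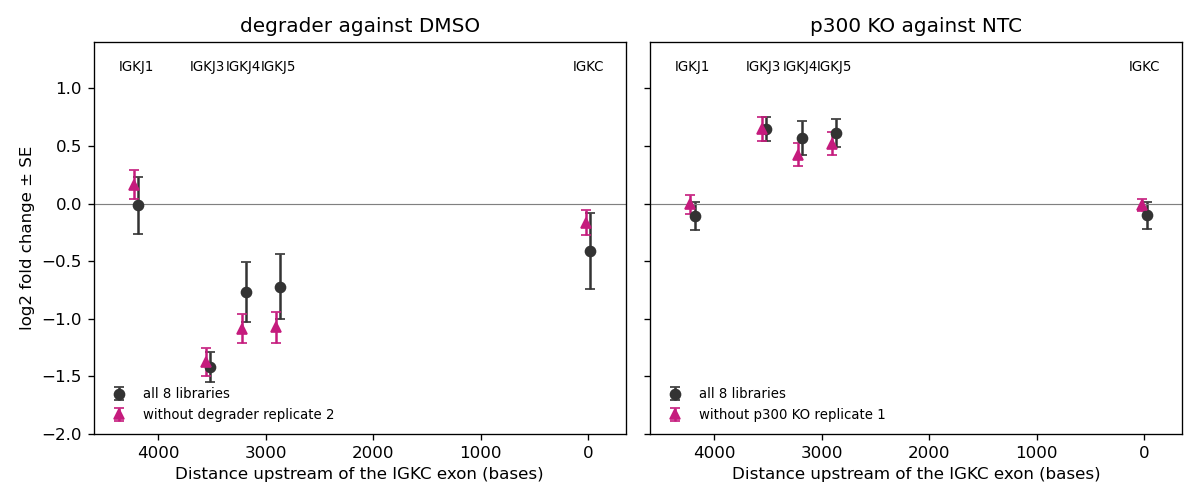
log2 fold change ± SE of the kappa J segments and IGKC by distance upstream of the IGKC exon in bases, for degrader against DMSO (left) and p300 KO against NTC (right). Circles are fits on all 8 libraries and triangles fits without degrader replicate 2 or p300 KO replicate 1; IGKJ3, IGKJ4 and IGKJ5 lie below 0 on the left and above 0 on the right, while IGKJ1 and IGKC lie nearer 0.

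IGHE rose in the KO, while IGHG3 and the pseudogene IGHGP fell and the other IgG genes did not pass with all libraries. IGHE was at 19.4 to 22.1 CPM in NTC (502, 501, 525 and 471 counts) and 24.3, 31.0, 28.5 and 27.9 CPM in the KO, with no overlap (log2 fold change 0.41 ± 0.09, adjusted p = 0.0141; 0.46 ± 0.07, adjusted p = 4.85e-07, without replicate 1; adjusted p = 0.0524 without NTC replicate 4). Under total count scaling IGHE did not pass (0.26, adjusted p = 0.572), nor without the low count filter (adjusted p = 0.0724) or in the fit on all 16 libraries (adjusted p = 0.0509). The IGHE to IGKC ratio was 1.43-fold higher on average (mean log2 difference 0.51, exact two-sided permutation p = 0.0286; 0.47 without KO replicate 1). Taking all heavy over all light chain constant counts in its place, the difference was 0.28 (exact permutation p = 0.114). As with the degrader, the IGHE to IGKC ratio is no separate support for the call of IGHE. IGHG1 was at 5.52, 4.80, 4.39 and 4.44 CPM in NTC and 4.36, 3.20, 2.56 and 2.09 CPM in the KO. It did not pass with all libraries (−0.69 ± 0.21, adjusted p = 0.0536) and fell without KO replicate 1 (−0.87 ± 0.15, adjusted p = 1.29e-05). IGHG4 was at 4.91, 3.83, 3.26 and 4.32 CPM in NTC and 3.49, 2.10, 2.74 and 2.32 CPM in the KO (−0.64 ± 0.20, adjusted p = 0.0516; −0.77 ± 0.17, adjusted p = 1.86e-04, without replicate 1). With all libraries kept, IGHG1 and IGHG4 passed in DESeq2 (adjusted p = 0.0139 and 0.0214) and limma-voom (0.0211 and 0.0329). IGHG2 was at 1.88, 1.41, 1.61 and 1.52 CPM in NTC and 2.23, 0.876, 1.04 and 1.09 CPM in the KO, with KO replicate 1 above every NTC library (−0.37 ± 0.29, adjusted p = 0.401; −0.68 ± 0.24, adjusted p = 0.0213, without replicate 1).

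The low-count IgG genes passed with all libraries, but both reached the test only through NTC, the group where they are high. Too few KO libraries had enough counts for the filter, so their falls are given as a description only. IGHG3 had 31, 24, 22 and 20 counts in NTC and 1, 10, 12 and 8 in the KO, and its log2 fold change was −1.41 ± 0.36 (adjusted p = 0.0265; −1.21 ± 0.34, adjusted p = 0.00322, without replicate 1). IGHGP, an IgG pseudogene, had 26, 19, 30 and 43 counts in NTC and 9, 11, 7 and 9 in the KO (−1.36 ± 0.36, adjusted p = 0.0312; −1.63 ± 0.34, adjusted p = 1.14e-04, without replicate 1). Both calls were lost without some single libraries: IGHG3 without NTC 1, 2, 3 or 4 or KO 2 or 4 (adjusted p 0.0531 to 0.0858), and IGHGP without NTC 1, 3 or 4 or KO 2, 3 or 4 (adjusted p 0.0721 to 0.101). In the fit on all 16 libraries IGHG3 had an adjusted p of 0.0696 and IGHGP 0.0703, while under total count scaling both passed, as did IGHG1 (−0.89, adjusted p = 0.0126) and IGHG4 (−0.83, adjusted p = 0.0210). Summed over the 5 IgG genes, the non-mitochondrial CPM were 17.5, 14.2, 13.6 and 15.2 in NTC and 13.2, 8.48, 8.43 and 7.53 in the KO. The 6 markers of earlier B cells summed to 29.4 to 34.2 non-mitochondrial CPM in NTC and 18.4 to 33.6 in the KO; 3 of the 5 tested fell (PAX5, MS4A1 and CD22; 10.7% of all genes) and without replicate 1 all 5 fell (21.8% of all genes). None of them was at 0, and their part in the IgG values was not tested.

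IGHA1 and IGHM did not pass in the KO. IGHA1 was at 7.41 to 9.99 CPM in NTC, at 19.8 CPM in KO replicate 1 and at 8.73 to 9.12 CPM in the other KO libraries (0.38 ± 0.26, adjusted p = 0.323; 0.03 ± 0.10, adjusted p = 0.817, without replicate 1). IGHA2 was at 12.1, 12.3, 11.4 and 12.04 CPM in NTC and 21.8, 14.4, 14.9 and 14.3 CPM in the KO; it missed the threshold with all libraries (0.44 ± 0.13, adjusted p = 0.0529) and rose by 0.28 ± 0.08 (adjusted p = 0.00508) without replicate 1. IGHM had −0.22 ± 0.13 (adjusted p = 0.264; −0.22 ± 0.12, adjusted p = 0.126, without replicate 1).

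**Figure D4:**
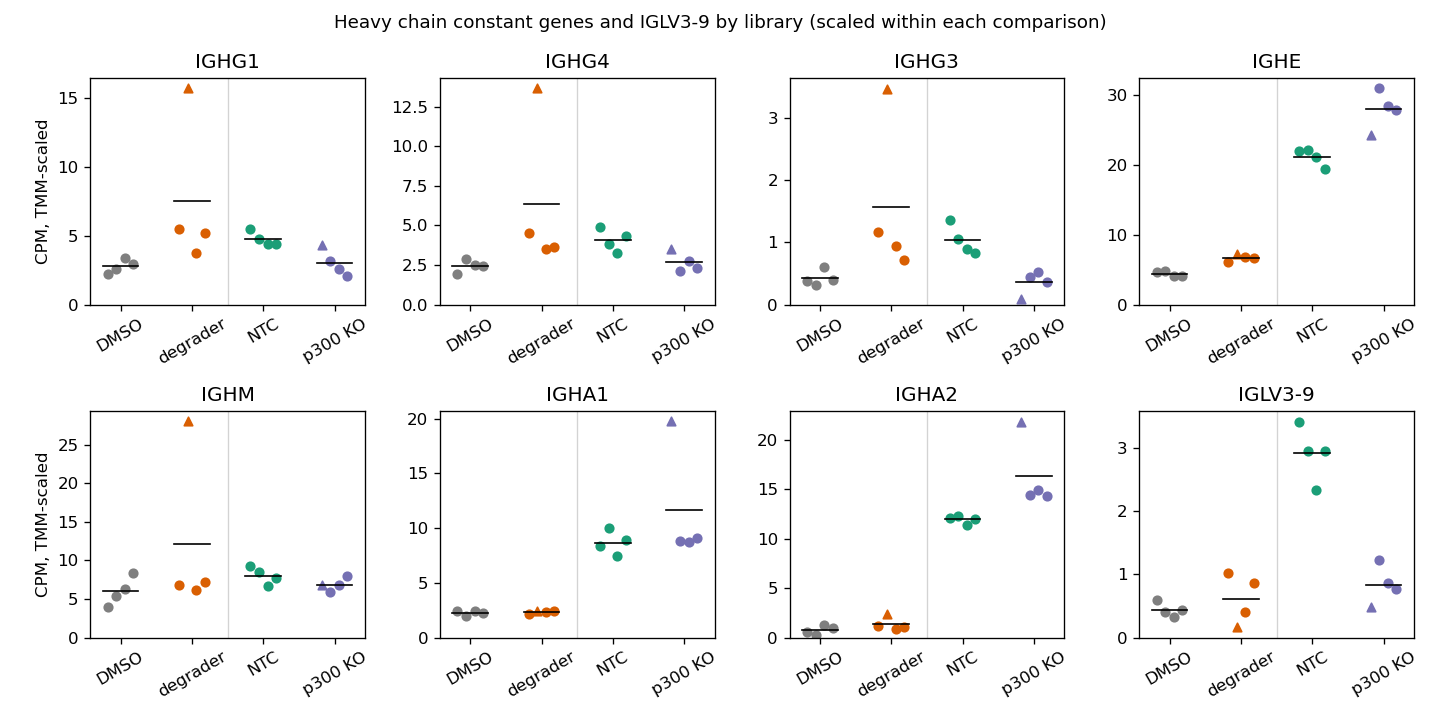
TMM-scaled CPM of 7 heavy chain constant genes and the lambda V gene IGLV3-9 in each library; lines are group means (n = 4), triangles are degrader replicate 2 and p300 KO replicate 1, and the grey line separates experiments, which were scaled separately. IGHG1, IGHG4 and IGHG3 lie higher with the degrader than in DMSO and, replicate 1 aside for IGHG4, lower in the KO than in NTC, while IGHE lies higher in both treated groups.

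In the lambda locus the V gene IGLV3-9 fell and the pseudogene IGLC5 rose. IGLV3-9 (chr22:22819010-22819756) was at 3.42, 2.95, 2.34 and 2.96 CPM in NTC and 0.485, 1.23, 0.868 and 0.772 CPM in the KO, which is 58 to 78 counts per library against 5 to 28. The log2 fold change was −1.74 ± 0.25 (adjusted p = 0.00220; −1.60 ± 0.22, adjusted p = 8.41e-08, without replicate 1), and IGLV3-9 passed whichever library was left out. In the first experiment IGLV3-9 had 6 to 11 counts per DMSO library and was not tested with all 8 libraries; without degrader replicate 2 it had 0.75 ± 0.40 (adjusted p = 0.145). IGLC5 was at 0.614, 1.01, 0.685 and 1.11 CPM in NTC and 3.29, 1.27, 1.82 and 1.68 CPM in the KO (1.18 ± 0.33, adjusted p = 0.0393; 0.89 ± 0.26, adjusted p = 0.00530, without replicate 1), and its call was lost without NTC 1, 2, 3 or 4 or KO 3 or 4 (adjusted p 0.0640 to 0.110) and in the fit on all 16 libraries (adjusted p = 0.130). IGLJ1 did not pass (−0.17 ± 0.13, adjusted p = 0.375; −0.06 ± 0.07, adjusted p = 0.517, without replicate 1), nor did IGLC2 (0.34 ± 0.23, adjusted p = 0.318; 0.03 ± 0.09, adjusted p = 0.805, without replicate 1). IGLL5 was at 397 to 419 CPM in NTC and 417 to 541 CPM in the KO (0.23 ± 0.09, adjusted p = 0.0893; 0.29, adjusted p = 7.07e-06, without replicate 1).

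Whether the effects of KO and degrader differed was tested directly, as the KO log2 fold change less the degrader log2 fold change in a fit on all 16 libraries; the comparisons share no library. Of 36 members tested, 4 were higher in the KO effect (2.82% of all 18068 genes tested were called higher) and 5 were lower (3.76% of all genes were called lower). Without degrader replicate 2 and KO replicate 1 it was 4 and 8, beside 15.3% and 16.7% of all genes, and all 9 genes remained called. IGKJ3 had a difference of 2.02 ± 0.16 (adjusted p = 3.64e-06), IGKJ5 1.32 ± 0.30 (adjusted p = 0.0143) and IGKJ4 1.32 ± 0.29 (adjusted p = 0.0124). For IGKJ1 the difference was −0.14 ± 0.30 (adjusted p = 0.847; −0.20, adjusted p = 0.347, without both libraries). The 4 IgG genes that passed were IGHG1 with −2.06 ± 0.48 (adjusted p = 0.0174), IGHG4 with −1.94 ± 0.49 (adjusted p = 0.0259), IGHG3 with −3.17 ± 0.67 (adjusted p = 0.0104) and IGHGP with −2.60 ± 0.67 (adjusted p = 0.0275). IGHG3 and IGHGP passed the filter on low counts only through NTC and degrader libraries, which lower this difference. Their calls are a description only. IGLV3-9 had −2.37 ± 0.53 (adjusted p = 0.0129; 0.0720 under total count scaling). Without both libraries the differences were 1.99 (IGKJ3), 1.57 (IGKJ5), 1.49 (IGKJ4), −1.67 (IGHG1), −1.45 (IGHG4), −2.38 (IGHG3), −2.25 (IGHGP) and −2.38 (IGLV3-9).

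The calls of 2 of these differences depended on single libraries. That of IGHG4 was lost without DMSO 1 or 4, NTC 1 or 4 or KO 2 or 4 (adjusted p 0.0502 to 0.0571), and that of IGHGP without DMSO 2, 3 or 4, NTC 4 or KO 2, 3 or 4 (adjusted p 0.0523 to 0.0657). IGLC7, a lambda constant gene with 3 to 14 counts per library, was tested only in this fit and had 2.34 ± 0.51 (adjusted p = 0.0125; 0.0897 without the low count filter; 2.55, adjusted p = 0.00239, without both libraries). It had 12, 11, 7 and 10 counts in DMSO and 6, 7, 14 and 10 in the KO, against 3 to 5 with the degrader and 4 to 6 in NTC. IGLC7 thus passed the filter on low counts only through DMSO and KO libraries, which raise this difference. Its call is given as a description only. For JCHAIN (−0.08 ± 0.26, adjusted p = 0.911), IGKC (0.27 ± 0.37, adjusted p = 0.732) and IGHE (−0.22 ± 0.16, adjusted p = 0.468) a difference was not shown. Without both libraries these were −0.24 (adjusted p = 0.161), 0.12 (adjusted p = 0.451) and −0.11 (adjusted p = 0.571).

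Regulators of immunoglobulin transcription were examined as a list of 30 genes chosen with earlier results of these data known. With the degrader 2 of the 28 tested fell and none rose: IRF4, a plasma cell transcription factor, with −0.88 ± 0.12 (adjusted p = 0.00475; −0.93 without replicate 2), and POU2AF1, the B cell coactivator of octamer-binding factors, with −0.53 ± 0.11 (adjusted p = 0.0349; −0.50 without replicate 2). Over all genes 3.12% were called lower and 1.64% higher. The list's median log2 fold change was −0.08, against 0.05 over all genes. Without replicate 2, 4 rose and 13 fell, where 18.2% of all genes were called higher and 20.3% lower; REL, IKZF3 and IKZF1, named after their values were seen, were among those that fell. In the KO 5 of 29 fell and none rose: IRF4 (−0.45 ± 0.06, adjusted p = 0.00202), PAX5 (−1.19 ± 0.18, adjusted p = 0.00269), POU2AF1 (−0.34 ± 0.06, adjusted p = 0.00561), ELL2, an elongation factor of secretory immunoglobulin processing (−0.46 ± 0.09, adjusted p = 0.00952), and BCL6, a transcriptional repressor active in germinal centre B cells (−0.97 ± 0.24, adjusted p = 0.0255). Over all genes 10.7% were called lower and 6.23% higher. The median was −0.14, against 0.02 over all genes. Without replicate 1 the values of these 5 were −0.43, −1.32, −0.33, −0.39 and −0.99, and 4 list genes rose and 14 fell, beside 19.1% and 21.8% of all genes.

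Of 23 genes for folding and secretion of antibodies, none passed with the degrader, where 14 rose and 1 fell without replicate 2 (18.2% and 20.3% of all genes). Those that rose included, named after their values were seen, the disulfide isomerase PDIA4, the peroxiredoxin PRDX4 and HSPA5, the chaperone that binds unassembled heavy chains. In the KO 2 of the 23 fell, near the 10.7% of all genes called lower, and none rose. They were MZB1 (−0.27 ± 0.07, adjusted p = 0.0238; −0.26 without replicate 1), a chaperone cofactor for antibody secretion, and SDF2L1 (−0.24 ± 0.07, adjusted p = 0.0438; −0.20 without replicate 1). Without replicate 1, 2 rose and 6 fell (19.1% and 21.8% of all genes). Among 12 partners of the B cell receptor and surrogate light chain, the kinase BTK rose with the degrader (0.68 ± 0.15, adjusted p = 0.0391; 0.72 without replicate 2; 1 of 8 tested, beside 1.64% of all genes called higher), and VPREB3 (−1.94 ± 0.35, adjusted p = 0.00643), the receptor subunit CD79B (−0.39 ± 0.09, adjusted p = 0.0205) and CD22 (−0.88 ± 0.26, adjusted p = 0.0454) fell in the KO (3 of 10 tested, beside 10.7% of all genes called lower). Without replicate 1 these were −2.11, −0.32 and −0.97.

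Genes next to the heavy chain locus in the genome or by translocation were also read. FGFR3, which the translocation places beside the heavy chain locus, rose with the degrader from 48.9 ± 1.36 to 110.4 ± 16.7 CPM (mean ± SD, n = 4 each; log2 fold change 1.18 ± 0.13, adjusted p = 0.00264; 1.27 without replicate 2) and had 0.39 ± 0.12 in the KO (adjusted p = 0.0505; 0.50, adjusted p = 6.65e-11, without KO replicate 1). NSD2 did not pass with all libraries in either experiment (0.13 ± 0.20, adjusted p = 0.764, with the degrader, −0.10 without replicate 2; 0.21 ± 0.08, adjusted p = 0.0970, in the KO) and rose in the KO without replicate 1 (0.15, adjusted p = 0.00955). FAM30A, whose span holds IGHD1-1, did not pass in either (0.18 ± 0.12, adjusted p = 0.434; 0.05 ± 0.07, adjusted p = 0.635), and nor did IGHD1-1 (0.81 ± 0.32, adjusted p = 0.199; −0.16 ± 0.30, adjusted p = 0.744). Without degrader replicate 2 and KO replicate 1, FAM30A had 0.11 and 0.10, and IGHD1-1 had 0.85 (adjusted p = 0.0647) and 0.03.

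The octamer, a motif of immunoglobulin promoters bound by the OCT factors with POU2AF1, was searched as ATTTGCAT and as its complement ATGCAAAT in promoters of 300 bases (250 before to 50 after the start, RefSeq GRCh38.p14). Only JCHAIN of the 40 members has a promoter in the table used, and these letters were not in that window; 1.77% of the 35116 promoters held them.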

How the data were processed

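The authors deposited raw counts, whole numbers of reads per gene and library, from bulk RNA sequencing. Tools named in the submitters' processing notes are STAR 2.5.2b, Trimmomatic 0.36, Subread 1.5.2 (featureCounts) and DESeq2 1.16.1, with the genome build GRCh38. The sources used here give neither the read length nor the strand setting, nor what was done with reads that fit several places or overlap several genes. Such reads decide how counts fall among near-identical and overlapping immunoglobulin genes.

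Ensembl identifiers were matched to symbols (40907 of 57500 had one). All 40 members were found in GENCODE 29, 32 with the same start, end and strand (96.1% over all genes). J sequences come from its GRCh38 transcripts and coordinates from its annotation, promoters from RefSeq. edgeR 4.0.16 in R 4.3.3 was fitted on the whole table: filterByExpr, TMM, quasi-likelihood test, Benjamini-Hochberg adjustment, calls under 0.05, each comparison on its own 8 libraries and their difference on 16. The SE is the log2 fold change divided by the square root of F. DESeq2 1.42.0 and limma 3.58.1 were alternatives. The fits were tested on simulated counts. Named members are those with at least 1% of their class's counts, up to 4 a class, JCHAIN, and up to 6 further called members per comparison. Members and lists were chosen with earlier results of these data known. Some items are not reported here. No 2 libraries held identical counts.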

Additional observations from a re-analysis of the deposited data

Results flagged for a closer look

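A library was far from the other 3 of its group, by Dixon's criterion, in 16 of 64 groups examined (16 members with at least 1000 counts, 4 groups each); chance flags about 1 in 20. Values are non-mitochondrial CPM. Degrader replicate 2 was far below its group for JCHAIN (7193, others 12213 to 12926), IGKV3-15 (846, others 3935 to 4371) and IGLJ1 (23.5, others 39.4 to 41.7), and far above it for IGKJ4 (18.8), IGKJ5 (17.0), IGHM (36.6, others 7.57 to 9.04), IGHG1 (20.6) and IGHG4 (17.9). KO replicate 1 was far below for IGKV3-15 (1775) and IGKV3D-15 (276), and far above for IGLC2 (25.4), IGHA2 (25.995) and IGHA1 (23.6, others 10.3 to 10.97). In both libraries the V gene was low and several heavy chain genes or J segments were high, and both had the highest mitochondrial shares; the part of that share was not tested. The NTC flags were small in size: IGKC in replicate 1 (6312, others 6488 to 6519), IGKV3D-15 in replicate 2 (638, others 593 to 599) and IGKJ5 in replicate 4 (7.79, others 9.29 to 9.54).

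The KO effect and the degrader effect differed by edgeR's test of the difference for 9 members, in log2 units IGKJ3 (2.02), IGKJ4 (1.32), IGKJ5 (1.32), IGLC7 (2.34), IGHG1 (−2.06), IGHG3 (−3.17), IGHG4 (−1.94), IGHGP (−2.60) and IGLV3-9 (−2.37). Of these, IGLC7, IGHG3 and IGHGP passed the filter on low counts only through the groups where they are high, so they are a description only.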

How the results depend on the processing

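The count of members called with the degrader, 2, was 7 with DESeq2, 4 with limma-voom, 0 with total count scaling (9 at an unadjusted p under 0.05), 1 with no low count filter, 1 with the replicate block and 8 with all 16 libraries in the fit; leaving out 1 library gave 1 to 9. Over all genes, the 755 called of 15872 became 1535 of 35724, 1008, 164, 394 of 35724, 24 and 2294 of 18068 under those settings. In the KO, 8 became 3 with the replicate block and 2 with all 16 libraries in the fit. Among members with at least 500 counts it was 4. Leave-outs gave 3 to 15, and the 15, without KO replicate 1, included IGKV1OR2-108. Over all genes, the 2944 called of 17350 became 1304 with the block and 1484 of 18068 with all 16 libraries. The 9 of the difference stayed within 1.5 times under every setting run (7 to 11 in leave-outs, 7 with the block). Total count scaling moved the median of all genes from 0.05 to −0.09 with the degrader and from 0.02 to −0.14 in the KO, and the calls over all genes from 260 higher and 495 lower to 19 and 145, and from 1081 and 1863 to 61 and 1204. The deviations of same-numbered libraries from their group means had correlations of −0.27 to 0.09 in the KO experiment and −0.58 to 0.34 in the degrader experiment. Degrader replicate 2 and KO replicate 1 shape these group means, so the correlations cannot tell whether the numbers pair the samples.

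The immunoglobulin share (mean log2 difference −0.25 with the degrader) was −0.58 for constant genes only and ranged from −0.358 (without degrader replicate 3) to 0.0462 (without replicate 2) in leave-outs; in the KO (−0.02) the range was −0.0535 (without replicate 3) to 0.0419 (without replicate 1). The IGHE to IGKC ratio ranged from 0.71 to 1.27 and 0.46 to 0.57 in leave-outs; under the replicate block, with exact sign flips of 4 pairs, the differences were 1.13 and 0.51 and p could not go below 0.125. The sum of all heavy over all light chain constant genes gave 0.28 in the KO. The ratio of V genes was not run, since no heavy chain V gene was a member.

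Values near 0 changed sign: JCHAIN in the KO under total count scaling (−0.0778), IGKV3-15 with the degrader under DESeq2 (0.0272), total counts (0.0291) and no filter (0.0635), IGKV3D-15 under limma-voom (−0.0785), IGKJ1 under DESeq2 (0.0104), limma-voom (0.0056) and no filter (0.0438), IGHA1 under total counts (−0.0942), and, in the difference, IGLV1-51 under total counts (0.0361) and without both mitochondria-rich libraries (0.46), and IGHA1 without both (−0.00099). In leave-outs the sign also changed for JCHAIN (−0.27 to 0.0014), IGKC (−0.00022 to 0.40), IGKV3-15 (−0.55 to 0.00064) and IGLV1-51 (−0.39 to 0.30) in the difference, IGKV3-15 (−0.14 to 0.30), IGKJ1 (−0.11 to 0.17) and IGHA1 (−0.0369 to 0.0935) with the degrader, and IGHD1-1 (−0.51 to 0.0318) and IGLV3-1 (−0.21 to 0.19) in the KO. None of these was called. The causes were not tested. Over 70 gene results, 19 of them called, settings other than leave-outs kept 500 values on their side of the threshold, lost 24 calls and gained 24. The block ended the calls of IGHE with the degrader (adjusted p = 0.227) and of IGHE (0.0542), IGKJ4 (0.0811), IGLC5 (0.109), IGHG3 (0.0963) and IGHGP (0.0866) in the KO, and of IGHG4 (0.0529) and IGHGP (0.0614) in the difference. Low counts limit IGHG3, IGHGP, IGLC5 and IGLC7.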
